A study of Mus musculus with 23 samples.

Results

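The replication-dependent histone genes were described in 23 RNA libraries of mouse hearts at embryonic day 13.5. The members were the 68 rows of the count table, among 23512 features, whose symbol starts with Hist and a digit, and 55 of them passed the filter on low counts. They comprise 6 H1, 18 H2A, 19 H2B, 12 H3 and 13 H4 genes. By cluster, 54 belong to Hist1 on chromosome 13, 10 to Hist2 on chromosome 3, 3 to Hist3 on chromosome 11 and 1, Hist4h4, lies on chromosome 6. In the mm10 coordinates of the authors' deposited annotation, Hist1 spans chr13:21715763-23934851, Hist2 spans chr3:96219916-96270192, Hist3 spans chr11:58948911-58956674 and Hist4h4 occupies chr6:136801553-136804431.

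The 7 GRK triple-knockout hearts were labelled GRK2 fl/fl and GRK5 fl/fl, with GRK6 KO/KO and Nkx2.5Cre. The 8 GRK-haploinsufficient hearts were labelled GRK2 fl/wt and were otherwise of the same genotype, so they too carried GRK5 fl/fl, GRK6 KO/KO and Nkx2.5Cre. The 8 wild-type hearts were wt/wt at all 3 genes and had no Cre. The strain label was C57BL/6 throughout. Nkx2.5Cre drives the recombinase from a cardiac lineage gene, so floxed alleles in other cells of the heart need not be recombined. GRK2, GRK5 and GRK6 are kinases that act on G-protein coupled receptors once these are switched on and turn their signal down.

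Replication-dependent histone genes supply the core histones and the linker histone H1 that package newly copied DNA. Their transcription rises at entry into S phase through the coactivator NPAT, a target of cyclin E with its kinase. Most of their mRNAs carry no poly(A) tail and end in a conserved stem-loop, which SLBP binds for 3′ processing, translation and decay at the end of S phase. Libraries here were made from total RNA after depletion of ribosomal RNA, a method that does not select for a tail. The embryonic heart still contains many dividing cells at this stage.

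The stem-loop is shown for 10 members that span the classes and include called ones, because its arm separates H4 from the other classes. Sequences are from GENCODE M21 transcripts (mm10), written as DNA and 5′ to 3′. The capitals mark the 6-base arm, the 4-base loop and the second arm, found downstream of the stop codon by the histone stem-loop pattern.
Hist1h1c: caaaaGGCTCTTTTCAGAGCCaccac
Hist1h2ae: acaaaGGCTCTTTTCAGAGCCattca
Hist2h2ac: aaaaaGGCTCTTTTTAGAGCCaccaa
Hist3h2a: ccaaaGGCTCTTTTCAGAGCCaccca
Hist1h2bg: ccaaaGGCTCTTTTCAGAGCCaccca
Hist1h3c: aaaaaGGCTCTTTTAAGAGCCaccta
Hist1h4a: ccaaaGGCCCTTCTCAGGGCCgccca
Hist1h4b: caaaaGGTCCTTTTCAGGACCactca
Hist1h4d: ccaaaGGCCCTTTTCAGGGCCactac
Hist4h4: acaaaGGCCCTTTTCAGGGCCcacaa
A stem-loop was found in 46 of the 68 members, between 21 and 58 bases after the stop codon. Of the other members, 16 have under 26 bases annotated after the stop codon or, in Hist3h2bb-ps, no annotated stop codon. The other 6 have longer annotated 3′ parts in which the pattern was not found, namely Hist1h1a, Hist1h2bc, Hist1h2bq, Hist1h2br, Hist2h2be and Hist2h3b. The left arm read GGCTCT in all 34 members of the other classes with a stem-loop. In all 12 H4 members with one it read GGCCCT or GGTCCT.

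Upstream sequences are shown for 5 members, chosen because Hist1h2af, Hist1h2ae, Hist1h4d and Hist1h4k were called between the GRK groups and Hist1h1b between haploinsufficient and wild-type hearts. Each is the 250 bases before the RefSeq gene start (GRCm38.p6), read along the gene's strand. The positions are chr13:23533625-23533874 (plus strand), chr13:23571221-23571470 (minus strand), chr13:21780626-21780875 (minus strand), chr13:23581318-23581567 (plus strand) and chr13:21750554-21750803 (minus strand). Capitals mark the CCAAT box, the TATA box as TATAAA, and the first letters of the octamer bound by OCT factors, ATTTGCA, each on either strand. The Hist1h2ae window overlaps the start of Hist1h2bg (chr13:23571400-23572014), an H2B gene on the plus strand. Its TTTATA and TGCAAAT are reverse complements that read forward on the strand of Hist1h2bg, so they are not assigned to Hist1h2ae.
Hist1h2af: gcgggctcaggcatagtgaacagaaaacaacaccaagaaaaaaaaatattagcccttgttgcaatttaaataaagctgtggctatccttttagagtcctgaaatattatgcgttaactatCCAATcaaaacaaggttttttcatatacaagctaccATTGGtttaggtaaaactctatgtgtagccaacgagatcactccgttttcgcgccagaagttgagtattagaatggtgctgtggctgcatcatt
Hist1h2ae: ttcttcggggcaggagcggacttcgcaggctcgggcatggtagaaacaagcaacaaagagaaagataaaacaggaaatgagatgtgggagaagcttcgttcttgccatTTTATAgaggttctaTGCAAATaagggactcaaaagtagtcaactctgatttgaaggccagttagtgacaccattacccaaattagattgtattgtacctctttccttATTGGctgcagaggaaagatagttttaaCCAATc
Hist1h1b: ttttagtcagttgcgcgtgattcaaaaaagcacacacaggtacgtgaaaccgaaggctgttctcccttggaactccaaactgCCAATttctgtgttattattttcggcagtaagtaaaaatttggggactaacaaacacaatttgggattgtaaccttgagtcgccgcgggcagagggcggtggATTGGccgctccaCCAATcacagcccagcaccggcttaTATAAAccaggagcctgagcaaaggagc
Hist1h4d: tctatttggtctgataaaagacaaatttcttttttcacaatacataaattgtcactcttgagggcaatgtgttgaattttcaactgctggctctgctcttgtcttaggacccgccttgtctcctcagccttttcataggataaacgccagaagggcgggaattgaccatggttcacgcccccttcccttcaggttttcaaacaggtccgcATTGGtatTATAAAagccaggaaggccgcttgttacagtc
Hist1h4k: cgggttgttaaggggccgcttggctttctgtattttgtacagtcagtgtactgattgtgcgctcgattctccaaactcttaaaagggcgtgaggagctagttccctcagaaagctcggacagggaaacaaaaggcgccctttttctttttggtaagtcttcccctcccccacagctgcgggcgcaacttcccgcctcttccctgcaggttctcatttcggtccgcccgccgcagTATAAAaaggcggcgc
RefSeq promoters of 300 bases, which reach 50 bases past the start, could be matched to 60 members. CCAAT, the box bound by NF-Y, occurred on either strand in 51 of these 60 windows (85%), against 37.4% of all 32851 promoters. It was in each matched H1, H2A, H2B and H3 window, but in 3 of 12 H4 windows (25%). ATTTGCA was found in 7 of 17 H2A windows (41.2%) and 6 of 15 H2B windows (40%), and in none of the H1, H3 or H4 windows, against 4.02% of all promoters. AAACACA, an element known from H1 promoters, was found in 5 of 6 H1 windows (83.3%) and 7.18% of all promoters. TATAAA was found in 35 of the 60 windows (58.3%) and 13.6% of all promoters. Motifs were counted separately, also where matches shared letters, and a match is a description of the window only. Where windows of neighbouring H2A and H2B genes overlap, a motif can be counted for both.

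Library totals ranged from 1757257 to 14050559 counts. They were 6657734 to 13864731 in triple-knockout, 1757257 to 11025358 in haploinsufficient and 3838166 to 14050559 in wild-type hearts. Exon 9 of Grk6 was at 0 to 0.217 CPM, a level scaled to library size, in triple-knockout and 0 to 0.0901 CPM in haploinsufficient hearts, against 3.85 to 5.05 CPM in wild-type hearts. Cre was at 8.23 to 24.9 CPM in triple-knockout, 9.91 to 24.2 CPM in haploinsufficient and 0 to 0.857 CPM in wild-type hearts. Of the Grk5 exons, exon 8 had 0.426 to 0.977 CPM in triple-knockout, 0 to 0.669 CPM in haploinsufficient and 1.03 to 3.58 CPM in wild-type hearts, while exon 7 overlapped, at 0 to 0.335 CPM, 0 to 2.33 CPM and 0 to 0.812 CPM. Exon 3 of GRK2 (Adrbk1) also overlapped between groups, at 0.286 to 1.99 CPM in triple-knockout, 0 to 2.17 CPM in haploinsufficient and 0.768 to 1.98 CPM in wild-type hearts, so loss of GRK2 is not shown by these counts. These exons were picked after their values were seen. Libraries also differed in markers of tissues near the heart (lung, foregut, liver and thymus). All 15 of these markers had counts in at least 1 library, and their summed level ranged from 13.02 to 155.6 CPM in triple-knockout, 16.2 to 258.2 CPM in haploinsufficient and 7.61 to 58.4 CPM in wild-type hearts. Their mean log2 CPM lay over 1.5 above the wild-type mean in 3 triple-knockout libraries (replicates 1, 3 and 7), 3 haploinsufficient libraries (replicates 1, 7 and 8) and 1 wild-type library (replicate 4). Results that rest on these libraries are given with and without them. The 11 cardiomyocyte markers summed to 52880 to 98353 CPM, 44798 to 93857 CPM and 62992 to 84028 CPM in triple-knockout, haploinsufficient and wild-type hearts.

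The histone genes together took 0.405 to 0.583% of the counts in triple-knockout, 0.432 to 0.967% in haploinsufficient and 0.461 to 0.638% in wild-type hearts. On the scale of CPM per kilobase of exon, the highest counted levels in wild-type hearts were those of H4 and H2B genes. The order of genes and classes is uncertain, since reads shared between members may not be counted. The H4 gene Hist1h4d had the highest mean at 980.02, followed by Hist1h4h at 883.7 and, in H2B, Hist2h2bb at 862.5 CPM per kilobase, a gene with 0 of 332 50-base stretches to itself. The H4 gene Hist1h4c and the H2B gene Hist1h2bb had 653.1 and 537.5, and the third H2B gene, Hist1h2bm, had 175.5. The leading H1 genes were Hist1h1a at 439.7, Hist1h1b at 341.8 and Hist1h1c at 230.7 CPM per kilobase. In H2A and H3, Hist2h2ac, Hist1h2ab and Hist1h2ak had 198.1, 182.4 and 97.7, and Hist1h3f, Hist1h3i and Hist1h3a had 145.2, 101.9 and 91.0 CPM per kilobase. The testis H1 gene Hist1h1t had 2.78 CPM per kilobase, and the testis genes Hist1h2aa and Hist1h2ba had 0.691 and 0.607.

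Sequence shared between members limits how counts and FPKM can be read. Of the 13 members that did not pass the filter, 9 had 10 counts or fewer over all libraries: Hist1h2ad, Hist1h2ao, Hist1h2ap, Hist1h2bq, Hist1h2br and Hist2h2aa1 had 0, Hist1h4m had 1, Hist1h4n had 2 and Hist2h2aa2 had 3. A count of 0 allows up to 0.201 to 1.75 CPM per library, from 3 counts, and this covers counting error only. The authors' FPKM was over 100 in wild type for 10 of the same 13, with a mean of 1619 for Hist1h4n, 1506 for Hist2h2aa1 and 1376 for Hist1h4m. In the deposited annotation Hist1h2ao overlaps Hist1h2ap, Hist1h2bq overlaps Hist1h2br, Hist1h4m overlaps Hist1h4n and Hist2h2aa1 overlaps Hist2h2aa2. Hist1h2ad, also at 0 counts, overlaps no other gene there and has 32.9% of its 50-base stretches to itself. The reads were 50 nt long, and 5 members share every 50-base stretch of their GENCODE M21 transcripts with another gene. Stretches were compared by gene name only, so a GENCODE gene of another name at the same place also counts as sharing. Hist2h2bb and Hist2h3b share most with Gm20628, and neither overlaps another gene in the deposited annotation. Hist1h2af, the marker of the group, has 6.00% of its stretches (21 of 350) to itself, and its level is therefore uncertain. Hist1h3h (6.08%), Hist1h3i (12.4%), Hist1h2an (14.2%) and Hist1h4k (28.5%) are limited in the same way, whereas Hist1h1b, Hist1h1a and Hist2h2be share no stretch. Of their whole transcripts, Hist1h4d and Hist4h4 have 89.8% and 91.5% to themselves. The transcript of Hist1h4d has 1138 bases but its counted exon has 312, so its share in the counted part was not measured. Since strand was not kept, reads from overlapping genes on opposite strands cannot be told apart either.

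**Figure D1:**
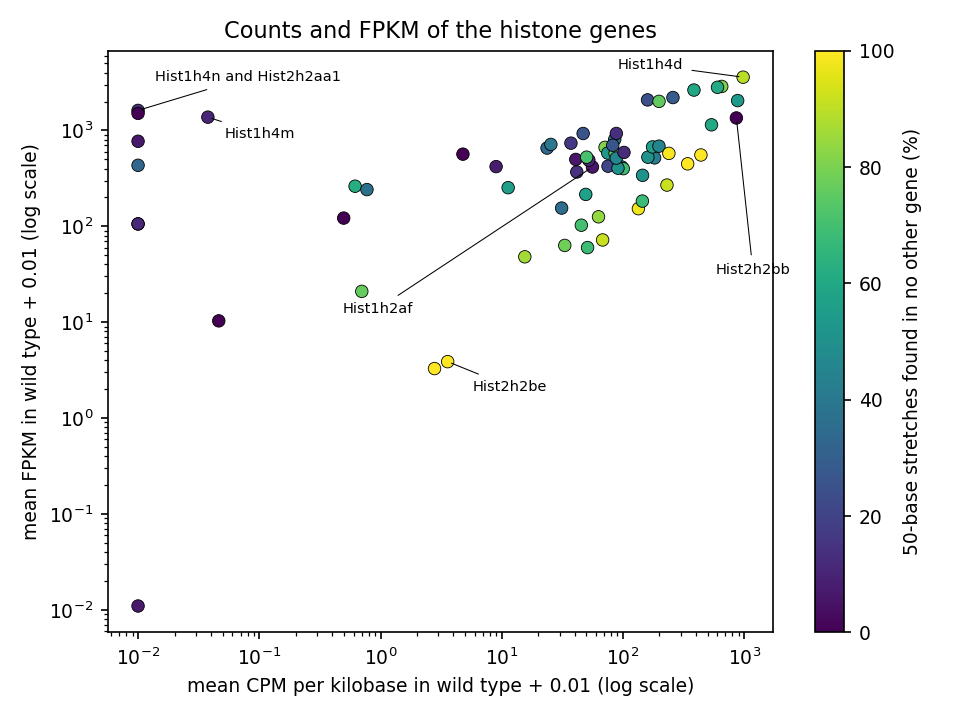
Mean CPM per kilobase of exon against mean FPKM of the authors, both in wild-type hearts with 0.01 added and on log axes, for the 68 members; the colour is the share of 50-base stretches found in no other gene. Several members near 0 on the count axis have FPKM over 100, among them Hist1h4n, Hist2h2aa1 and Hist1h4m.

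The direct comparison of the GRK groups asks what changes when the remaining GRK2 allele is floxed too. The edgeR quasi-likelihood test with Benjamini-Hochberg adjustment over 13965 features called 17 of the 55 tested members lower and none higher, 30.9% of them, against 0.315% of all features called lower, 0.0788% called higher and 0.394% called in either direction. These were 9 H4, 5 H2A, 2 H3 and 1 H2B genes, and no H1 gene. The 17 are 38.6% of the 44 features called lower in this comparison. The median log2 fold change of the tested members was -0.67, against 0.00 over all features. Negative values were found in 54 of 55 members and in 6907 of all 13965 features. An unadjusted p under 0.05 was reached by 50 of the 55 and by 2145 of all features. No member's groups were free of overlap, against 0.0573% of all features that lay wholly lower and 0.0215% wholly higher. As these are whole hearts, fewer cells of a type and less RNA per cell cannot be told apart. The labels do not say whether each library came from its own embryo, so a p-value here reflects how much these libraries vary, and that variation can be technical.

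Of the H4 genes, 9 of 11 tested fell. H4 is the core histone that pairs with H3. Their summed level was 1155 to 1614 CPM in triple-knockout (median 1352) and 1247 to 2985 CPM in haploinsufficient hearts (median 2351). The means were 1349 ± 152 CPM (SD, n = 7) and 2293 ± 582 CPM (SD, n = 8). In 7 of the 8 haploinsufficient libraries the sum lay above the highest triple-knockout library, and replicate 3 did not.

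Hist1h4d, the H4 gene with the highest counted level per kilobase, had 195.8, 234.7 and 263.7 CPM (lowest, median and highest) in triple-knockout hearts, against 232.5, 399.7 and 581.6 CPM in haploinsufficient hearts. Its log2 fold change was -0.78 ± 0.16 (SE, adjusted p = 0.0204, edgeR). The groups overlapped through the lowest haploinsufficient library only. Hist1h4h had 224.3, 325.8 and 388.3 CPM in triple-knockout hearts, against 238.7, 595.2 and 713.0 CPM in haploinsufficient hearts, and fell by 0.80 ± 0.17. Hist1h4k had 44.96, 57.98 and 83.8 CPM, against 56.2, 115.6 and 162.7 CPM in haploinsufficient hearts, and had the lowest p among H4 genes (log2 fold change -0.98 ± 0.16, adjusted p = 0.0128, edgeR). Hist4h4, the single gene of its cluster, had 143.6, 177.1 and 254.6 CPM, against 213.0, 266.7 and 429.9 CPM in haploinsufficient hearts (-0.64 ± 0.12). Every triple-knockout library of these 4 genes lay below the haploinsufficient median. The other called H4 genes, Hist1h4a, Hist1h4b, Hist1h4c, Hist1h4f and Hist1h4j, had log2 fold changes between -0.87 and -0.73. Hist1h4i (-0.63, adjusted p = 0.0846, edgeR) and Hist2h4 (-0.66, adjusted p = 0.162, edgeR) did not pass.

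Of the H2A genes, which pair with H2B, 5 of 12 tested fell, and the largest log2 fold change among the 55 was in this class. Hist1h2af (chr13:23533911-23534303, 1 exon) had 6.53, 10.9 and 17.3 CPM in triple-knockout hearts, against 16.2, 30.1 and 40.2 CPM in haploinsufficient hearts. The groups overlapped where the 2 highest triple-knockout libraries met the 2 lowest haploinsufficient ones. Its log2 fold change was -1.24 ± 0.19 (SE), 2.36-fold lower, with the smallest adjusted p of the members (0.00604, edgeR). Hist1h2an followed with 8.60, 10.9 and 14.6 CPM, against 12.7, 22.2 and 32.3 CPM in haploinsufficient hearts (-1.02 ± 0.17, adjusted p = 0.0128, edgeR). Hist1h2ae had 16.2, 25.3 and 26.6 CPM, against 19.4, 43.0 and 68.3 CPM (-0.92 ± 0.20), and Hist1h2ak had 19.2, 28.6 and 36.6 CPM, against 22.96, 47.3 and 110.6 CPM in haploinsufficient hearts (-0.91 ± 0.21). The lowest haploinsufficient library of Hist1h2ae and the 2 lowest of Hist1h2ak lay inside the triple-knockout range. Hist2h2ac, the H2A gene with the highest counted level per kilobase, had 40.5, 61.2 and 68.6 CPM, against 46.6, 97.8 and 138.5 CPM in haploinsufficient hearts (-0.75 ± 0.16).

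Fewer H3, H2B and H1 genes passed, and the difference between classes was not tested. Many H4 genes have 312 bases of exon, though Hist4h4 has 2879, and H1 genes have 672 to 2977. Class and length were not separated. In H3, 2 of 10 tested were called. Hist1h3c had 17.2, 24.2 and 30.8 CPM in triple-knockout hearts, against 24.5, 52.1 and 70.2 CPM in haploinsufficient hearts (-1.01 ± 0.18, adjusted p = 0.0154, edgeR). Hist1h3h had 10.8, 18.2 and 27.2 CPM, against 19.4, 30.8 and 40.5 CPM in haploinsufficient hearts (-0.71 ± 0.15). In both genes the groups overlapped at the low end of the haploinsufficient range. In H2B, 1 of 16 was called, Hist1h2bg, with 59.4, 71.1 and 85.7 CPM in triple-knockout hearts, against 66.2, 112.8 and 161.0 CPM in haploinsufficient hearts (-0.64 ± 0.15). None of the 6 H1 genes, which encode the linker histone, was called, while 5 had an unadjusted p under 0.05 and their log2 fold changes lay between -0.49 and -0.23. The medians were -0.79 in H2A, -0.76 in H4, -0.68 in H3, -0.51 in H2B and -0.46 in H1. Hist2h2be was the only tested member with a positive value (0.29 ± 0.17, adjusted p = 0.422, edgeR), with 9.30, 11.5 and 11.9 CPM in triple-knockout and 6.29, 9.26 and 14.04 CPM in haploinsufficient hearts. By cluster, 15 of 45 tested Hist1 genes, 1 of 6 Hist2 genes, none of 3 Hist3 genes and Hist4h4 were called.

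Larger values that did not pass were those of Hist1h2bk, an H2B gene (-1.14 ± 0.29, adjusted p = 0.0790, edgeR), and Hist2h3b, an H3 gene with no 50-base stretch of its own (-1.14 ± 0.48, adjusted p = 0.257, edgeR); both were singled out after their values were seen. The sequence features divided the tested members as follows, as a description. Of the 37 with a stem-loop found 12 were called lower, with a median of -0.66. So were 5 of 14 with under 26 bases after the stop codon or no annotated stop codon (median -0.71). None of 4 with a longer 3′ part without a stem-loop was called (median -0.49). None of 7 members with AAACACA in the promoter was called (median -0.46), against 17 of 41 without it (median -0.71). As 5 of the 6 H1 windows hold AAACACA, this split largely repeats the H1 class, which had no call and the same median. Among members with at least 50% of their 50-base stretches to themselves, 10 of 32 were called (median -0.62), and among the others 7 of 23 (median -0.73). These shares are of whole GENCODE transcripts, which for some members run well past the exons that were counted. Hist1h4j, placed with the first set, has a transcript of 774 bases and a counted exon of 312 bases. The split therefore does not measure shared sequence in the counted part. H4 genes made up 28.96 ± 1.22% of the summed histone CPM in triple-knockout, 32.01 ± 1.57% in haploinsufficient and 31.5 ± 0.60% in wild-type hearts (SD, n = 7, 8 and 8), and H1 genes made up 30.9 ± 1.3%, 28.1 ± 2.2% and 29.03 ± 1.39%.

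**Figure D2:**
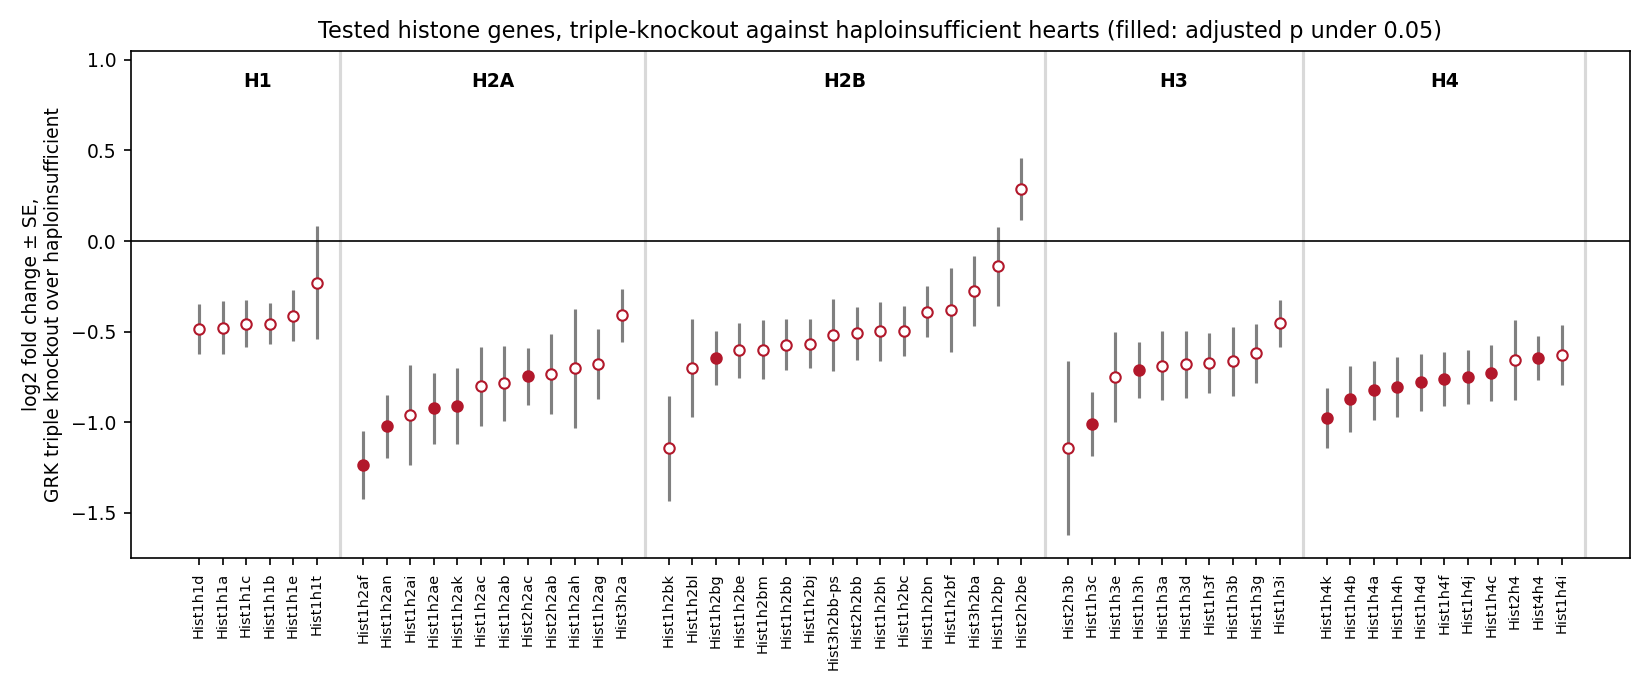
Log2 fold change of triple-knockout over haploinsufficient hearts with its SE for the 55 tested members, ordered within each class; filled points have an adjusted p under 0.05. All points but Hist2h2be lie below 0, and 9 of the 11 H4 points are filled.

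The calls of this comparison depended on the fit. Only Hist1h2an passed with the 2 GRK groups fitted without wild type, and none passed with exon-length-corrected offsets or without the 7 libraries of high lung, foregut, liver and thymus score, although the median stayed negative at -0.68, -0.34 and -0.38. Over all features, these 3 fits called 1, 0 and 0. Without haploinsufficient replicate 3, the lowest of its group, 43 were called, and without triple-knockout replicate 2 or 3 there were 4. Features called in all numbered 414, 11 and 10 in these fits, against 55 in the main fit, so calling moved outside the members too. Without triple-knockout replicate 1 there were 6, and without replicate 6 there were 9. Without haploinsufficient replicate 1 or 7 there were 5, without replicate 8 there were 7 and without replicate 2 there were 10. Without haploinsufficient replicate 4 there were 11 and without replicate 6 there were 27. With each of these libraries left out, features called in all ran from 13 to 76. Members' fold changes within each set of library IDs were negative in both for the 17 called genes, and the medians over the 55 were -0.56 for IDs 19 to 30 and -0.74 for IDs 1 to 12.

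**Figure D3:**
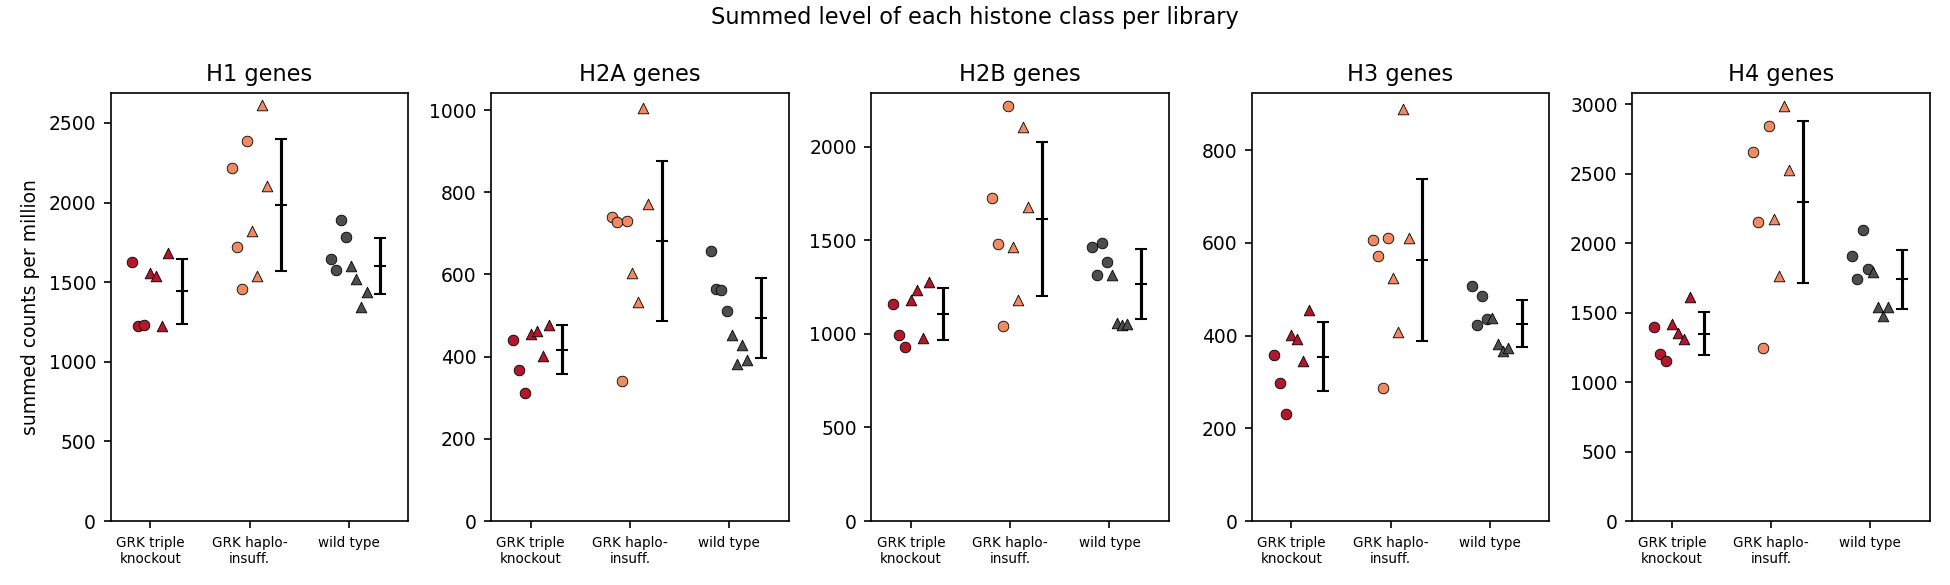
Summed CPM of each histone class in every library; circles are library IDs 1 to 12, triangles IDs 19 to 30, and bars give the mean and SD of a group (n = 7, 8 and 8). For H4 the triple-knockout libraries lie between 1155 and 1614 CPM, and 7 of the 8 haploinsufficient libraries lie above them.

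The triple-knockout hearts were then compared with wild type, from which they differ by label at all 3 kinase genes and in Cre. Hist1h2af was the only member called, 1 of 55 lower, against 0.716% of all features called lower, 0.501% called higher and 1.22% called in either direction. It had 6.53, 10.9 and 17.3 CPM in triple-knockout hearts, against 15.7, 22.3 and 30.96 CPM in wild-type hearts. Its log2 fold change was -0.87 ± 0.19 (SE, adjusted p = 0.0107, edgeR), a 1.83-fold lower level, and the groups overlapped by a small margin. The tested members had a median of -0.28, against 0.01 over all features, with 48 of 55 negative and 22 at an unadjusted p under 0.05. Of all 13965 features, 6598 were negative and 1526 had an unadjusted p under 0.05. Medians by class were -0.43 in H2A, -0.39 in H4, -0.26 in H3, -0.14 in H2B and -0.08 in H1.

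Hist1h2an had the next smallest p, with 8.60, 10.9 and 14.6 CPM in triple-knockout hearts, against 11.9, 16.8 and 22.4 CPM in wild-type hearts (-0.54 ± 0.17, adjusted p = 0.160, edgeR). Hist1h2ae, also not called (-0.54 ± 0.19, adjusted p = 0.234, edgeR), was the one member whose groups did not overlap, with 16.2 to 26.6 CPM in triple-knockout and 27.4 to 52.0 CPM in wild-type hearts. Over all features, 0.551% lay wholly lower and 0.401% wholly higher. The Hist3 genes ran the other way: Hist3h2a had 113.1, 128.1 and 147.2 CPM in triple-knockout hearts, against 67.1, 97.0 and 145.9 CPM in wild-type hearts (0.35 ± 0.15, adjusted p = 0.357, edgeR), and Hist3h2ba had 0.44 ± 0.19 (adjusted p = 0.387, edgeR). Neither was called.

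The median over the 55 was -0.01 within library IDs 19 to 30 and -0.64 within IDs 1 to 12. The difference between the ID sets had an unadjusted p under 0.05 for 28 of the 55, and none passed after adjustment over all features. The share of all features at that unadjusted level is not given here. Hist1h2af had log2 fold changes of -1.07 within IDs 19 to 30 and -0.67 within IDs 1 to 12, and it passed in neither set fitted alone. It was also not called with exon-length-corrected offsets or with limma on the authors' FPKM. More members were called lower in other fits: 6 with only these groups fitted, 3 with the short-gene level as a term and 14 with the lung, foregut, liver and thymus score as a term (median -0.44), both terms chosen after seeing the data. Over all features these fits called 301, 213 and 198, against 170 in the main fit.

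Haploinsufficient hearts against wild type had the opposite sign. The edgeR fit called 5 of 55 tested members higher and none lower, against 0.924% of all features called higher, 1.38% called lower and 2.31% called in either direction. No member's groups were free of overlap, against 0.186% of all features that lay wholly higher and 0.294% wholly lower. The median was 0.40, against 0.01 over all features, with 54 of 55 positive and 36 at an unadjusted p under 0.05. Of all 13965 features, 7332 were positive and 2416 had an unadjusted p under 0.05. The 2 comparisons with wild type share the same 8 wild-type libraries, and the comparison of the GRK groups shares its libraries with both, so the 3 are not independent.

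In the Hist3 cluster, 2 of the 3 genes rose, and the third, Hist3h2bb-ps, is a pseudogene by its symbol. Hist3h2a (chr11:58954685-58956674, 1 exon), an H2A gene, had 104.5, 173.5 and 204.1 CPM in haploinsufficient hearts, against 67.1, 97.0 and 145.9 CPM in wild-type hearts (0.76 ± 0.14, adjusted p = 0.00371, edgeR). All haploinsufficient libraries but the lowest lay above the highest wild-type library. Hist3h2ba, an H2B gene of the same cluster, had 20.7, 33.0 and 45.7 CPM, against 11.2, 19.4 and 30.8 CPM in wild-type hearts (0.71 ± 0.19). Hist4h4 had 213.0, 266.7 and 429.9 CPM, against 159.7, 202.8 and 226.5 CPM in wild-type hearts (0.53 ± 0.12, adjusted p = 0.0126, edgeR).

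Hist1h1b, a linker histone gene that shares no 50-base stretch with another gene, had 222.2, 322.5 and 420.3 CPM in haploinsufficient hearts, against 154.3, 236.7 and 275.3 CPM in wild-type hearts (0.47 ± 0.11, adjusted p = 0.0218, edgeR). Hist1h3h had 19.4, 30.8 and 40.5 CPM, against 17.1, 20.3 and 23.3 CPM in wild-type hearts (0.59 ± 0.15). Haploinsufficient ranges were the wider ones for each of these genes. Hist1h2af was 0.36 and not called (adjusted p = 0.285, edgeR), and Hist2h2be was -0.04, the only negative value. Class medians were 0.45 in H3, 0.42 in H4, 0.40 in H2A, 0.32 in H2B and 0.27 in H1, and the Hist3 genes had a median of 0.71.

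Without the 7 libraries of high lung, foregut, liver and thymus score none of these 5 was called and the median was 0.14. That fit called 124 features in all, against 322 in the main fit. Without haploinsufficient replicate 3 there were 23 called, and without replicate 7, the highest of its group, 2. Features called in all numbered 618 and 196 in these fits, against 322 in the main fit. Leaving out haploinsufficient replicate 1 also left 2, replicate 8 left 3 and replicate 6 gave 8. Leaving out wild-type replicate 7 left 2, and wild-type replicate 1, 2, 5, 6 or 8 left 3. With each of these libraries left out, features called in all ran from 162 to 318. Within IDs 1 to 12 alone none was called (median 0.15), and within IDs 19 to 30 alone 8 were called (median 0.60). Over all features these 2 fits called 22 and 187.

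Between the 2 sets of library IDs, over all groups, the edgeR fit called none of the 55 members, against 0.186% of all features (0.129% higher and 0.0573% lower). An unadjusted p under 0.05 was reached by 8 of the 55 and by 1196 of all 13965 features. DESeq2 also called no member. The smallest p values belonged to Hist1h2af (-0.52, IDs 19 to 30 over IDs 1 to 12, adjusted p = 0.194, edgeR) and Hist2h2be (-0.37) among lower members, and to Hist1h1b (0.27) and Hist1h3d (0.43) among higher ones. The median was 0.04. What the ID sets stand for is not stated in the labels.

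Tested histone genes are short, with 312 to 2977 bases of exon, and fold changes of other genes varied with length in the same libraries. Among 6898 other genes in that length range, the triple-knockout over haploinsufficient median was -0.08, with 25 called, all lower. Among the 393 of them with up to 750 bases it was -0.29, with 10 called lower, against -0.70 and 16 of 45 called for histone genes up to that length. For the 10 tested histone genes over 750 bases it was -0.47, with 1 called. For the 114 tested genes shorter than every tested histone gene it was -0.52, with 1 called. The same 3 sets of other genes had medians of 0.06, 0.16 and 0.55 in haploinsufficient over wild-type hearts and of -0.03, -0.12 and -0.07 in triple-knockout over wild-type hearts. The limit of 750 bases was chosen after these values were seen.

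**Figure D4:**
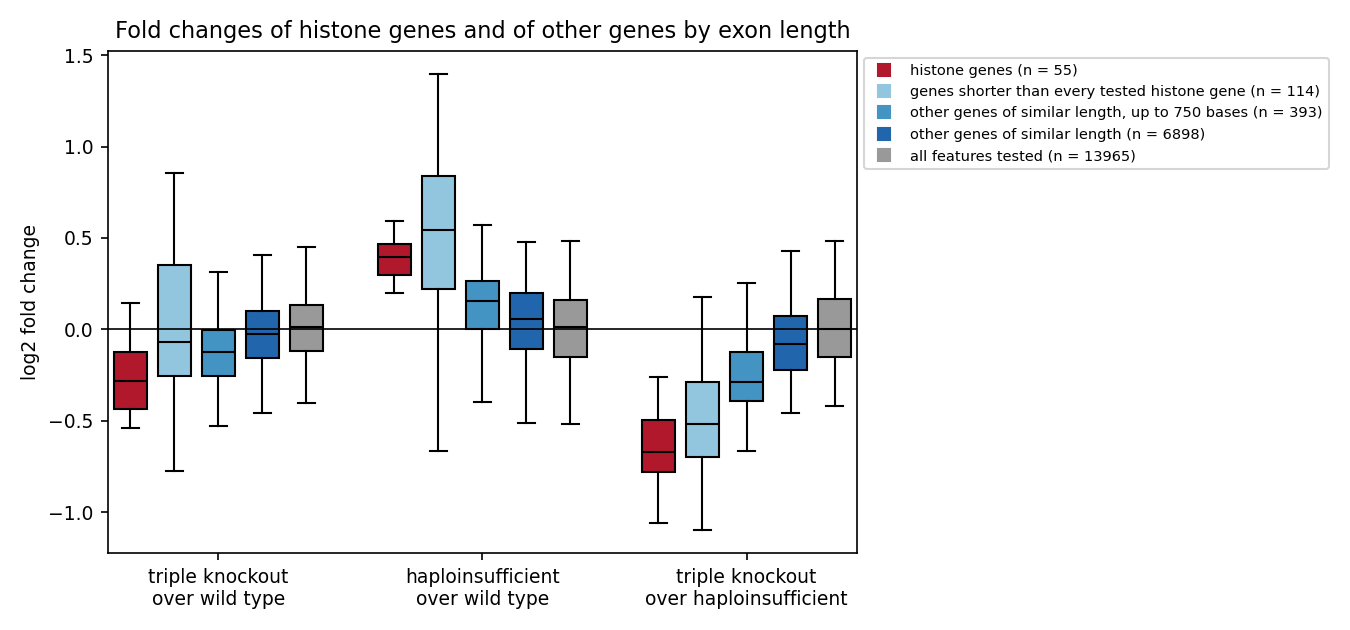
Log2 fold changes in the 3 comparisons for tested histone genes, for other genes by exon length and for all features tested; boxes give the quartiles and median, whiskers the 5th and 95th percentiles. In triple-knockout over haploinsufficient hearts the medians were -0.67 for histone genes, -0.52 for shorter genes, -0.29 and -0.08 for genes of similar length and 0.00 for all features.

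The histone genes moved together from library to library. After group and ID set were taken out, the 1485 pairs of tested members had a median Pearson correlation of 0.67 over 23 libraries, 0.69 within classes and 0.67 across classes, as a description of genes that share libraries and sequence. Hist2h4 stood apart with a median of -0.19 with the other members, and Hist2h2be followed at 0.20. Hist2h4 had 63.1 to 100.6 CPM in triple-knockout, 50.03 to 161.1 CPM in haploinsufficient and 30.03 to 113.6 CPM in wild-type hearts. Its wild-type libraries had 30.03 to 95.2 CPM in IDs 1 to 12 and 102.1 to 113.6 CPM in IDs 19 to 30. Its triple-knockout over wild-type log2 fold change was -0.73 within IDs 19 to 30 and 0.42 within IDs 1 to 12. That difference did not pass (adjusted p = 0.431, edgeR).

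The members' median level per library, as log2 CPM minus the wild-type mean, was -0.64 to 0.07 in triple-knockout, -0.36 to 0.95 in haploinsufficient and -0.25 to 0.26 in wild-type hearts. It correlated across the 23 libraries with the same measure of the 114 shorter genes (Pearson r = 0.784, Spearman rho = 0.822, and r = 0.719 without the 2 libraries farthest from the median). Within groups r was 0.831 in triple-knockout, 0.799 in haploinsufficient and 0.762 in wild-type hearts, and it was 0.495, 0.381 and 0.616 without the 2 farthest. These values are given without p, since both measures come from the same libraries and depths. The shorter genes themselves ranged from -0.94 to 0.55 in triple-knockout, -0.71 to 1.25 in haploinsufficient and -0.49 to 0.51 in wild-type hearts. With the lung, foregut, liver and thymus score, r was -0.07 in triple-knockout, 0.819 in haploinsufficient and 0.604 in wild-type hearts, and with the cardiomyocyte score it was -0.11, -0.80 and -0.21. The part of these in the histone differences was not tested beyond fits that include them. With the short-gene level as a term, 4 members were called lower between the GRK groups (median -0.45). With the lung, foregut, liver and thymus score as a term 27 were called (median -0.62), against 17 without such a term. Both terms were chosen after seeing the data. Over all features these fits called 4 and 169, against 55 in the main fit. An unadjusted p under 0.05 was reached by 45 and 48 of the 55 members, against 50 in the main fit.

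**Figure D5:**
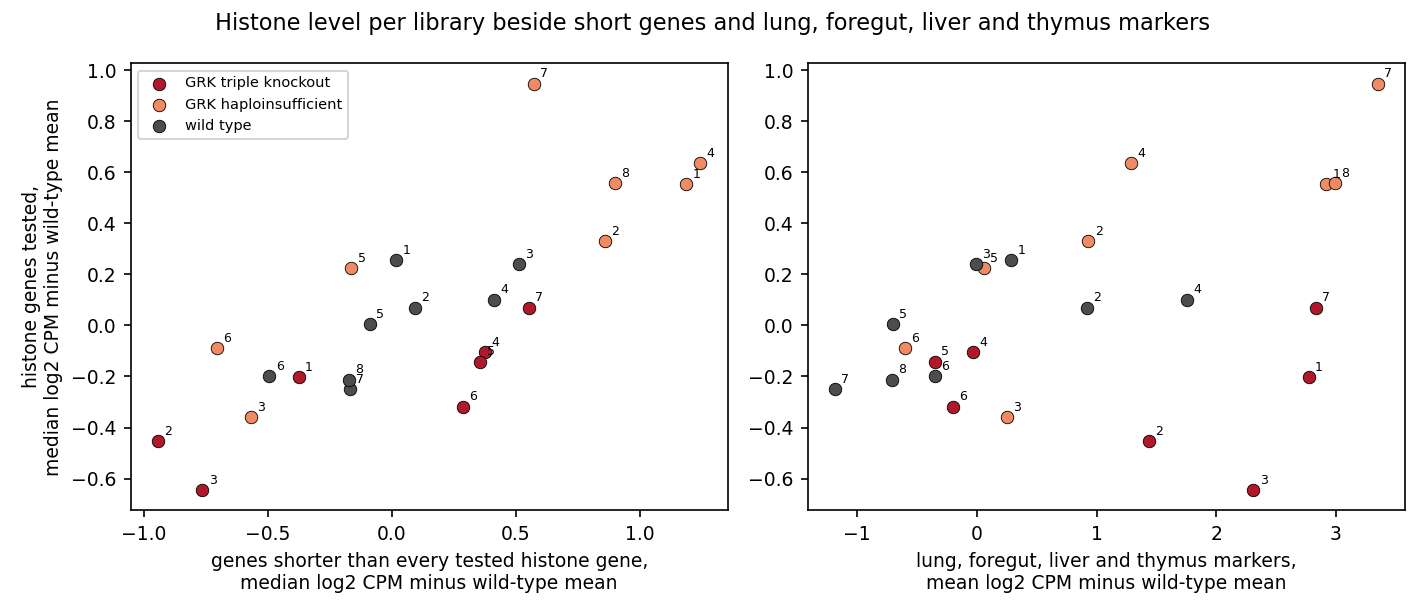
Median log2 CPM minus wild-type mean of the 55 tested histone genes in each library, against the same measure of 114 shorter genes (left) and against the mean over lung, foregut, liver and thymus markers (right); numbers are replicates. Haploinsufficient replicate 7 is highest at 0.95 and replicate 3 lowest of its group at -0.36.

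Of 11 factors of histone gene transcription, none was called in any comparison, with medians of -0.04 for triple-knockout over haploinsufficient hearts, 0.09 for triple-knockout over wild type and 0.08 for haploinsufficient over wild type. Ccne2, which encodes cyclin E2, had 11.1 ± 2.4 CPM in triple-knockout, 17.6 ± 5.6 CPM in haploinsufficient and 16.4 ± 5.0 CPM in wild-type hearts (SD, n = 7, 8 and 8). Its log2 fold change over haploinsufficient hearts was -0.65 (adjusted p = 0.128, edgeR). Of 21 genes of histone mRNA 3′ end formation and decay, none was called either. Slbp, which encodes the stem-loop binding protein, had 37.4 ± 3.8, 47.3 ± 11.3 and 36.6 ± 4.4 CPM in triple-knockout, haploinsufficient and wild-type hearts, and Lsm11, a part of the U7 particle, had 44.3 ± 2.9, 42.6 ± 8.5 and 54.3 ± 7.1 CPM.

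Among 11 replication-independent variants, which are expressed outside S phase too, 2 fell in triple-knockout against haploinsufficient hearts, where 0.315% of all features were called lower. H2afz, which encodes H2A.Z, had 247.8 ± 13.9 CPM in triple-knockout, 379.2 ± 81.4 CPM in haploinsufficient and 303.2 ± 50.2 CPM in wild-type hearts (-0.59 ± 0.12 between the GRK groups, SE, adjusted p = 0.0204, edgeR). H2afx, which encodes the variant phosphorylated at DNA breaks, had 99.5 ± 5.4, 148.3 ± 41.8 and 120.5 ± 12.96 CPM (-0.58 ± 0.12). The list median was -0.24, against 0.00 over all features, and neither gene was called against wild type. H2afz lost its call in 14 and H2afx in 18 of 38 alternatives (adjusted p up to 0.762 and 0.770 in edgeR, DESeq2 or limma), and no feature at all was called between the GRK groups with exon length correction or without the libraries of high lung, foregut, liver and thymus score.

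Of 21 histone chaperones, Asf1b and Chaf1a rose in haploinsufficient over wild-type hearts, where 0.924% of all features were called higher. Asf1b, which hands H3 and H4 to assembly factors, had 30.3 ± 6.8 CPM in haploinsufficient and 20.6 ± 5.0 CPM in wild-type hearts (0.57 ± 0.15, SE, adjusted p = 0.0364, edgeR). Chaf1a, a subunit of the chromatin assembly factor, had 95.02 ± 21.1 CPM, against 71.6 ± 7.6 CPM in wild-type hearts (0.41 ± 0.11). The call was lost in 18 of 38 alternatives for Asf1b and in 25 of 38 for Chaf1a, whose log2 fold change was as low as 0.13. Of 27 S phase genes, Mcm4, a subunit of the replicative helicase, and Uhrf1, which binds hemimethylated DNA at the fork, rose in the same comparison by 0.40 ± 0.11 and 0.33 ± 0.09, with a list median of 0.21. Mcm4 lost its call in 25 and Uhrf1 in 22 of 38 alternatives. Between the GRK groups the S phase median was -0.12 and none was called. Of the 27, 24 were negative, as were 6907 of all 13965 features. An unadjusted p under 0.05 was reached by 9 of the 27 and by 2145 of all features. The members' median level per library correlated with the mean log2 CPM of the 27 genes (Pearson r = 0.628 over 23 libraries). Within triple-knockout, haploinsufficient and wild-type hearts r was 0.666, 0.512 and 0.80. It was 0.342, 0.820 and 0.73 without the 2 farthest libraries. The part of S phase in the histone results was not tested. None of 20 G2 and mitosis genes was called in any comparison, with medians of -0.08 for triple-knockout over haploinsufficient, 0.06 for triple-knockout over wild type and 0.13 for haploinsufficient over wild type.

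Markers of other cells are given beside these results. None of 11 cardiomyocyte and none of the 8 tested red cell markers was called in any comparison. Of 15 red cell markers Hba-a1, Hba-a2, Hbb-b1 and Hbb-b2 had 0 counts in every library and 3 were not in the count table; the list summed to 4241 to 11506 CPM in triple-knockout, 3452 to 18732 CPM in haploinsufficient and 4982 to 17798 CPM in wild-type hearts. Of 10 macrophage markers, which summed to 151.4 to 208.9 CPM, 107.5 to 185.5 CPM and 106.8 to 179.6 CPM in these groups, Mrc1 rose in triple-knockout over wild-type hearts (0.77 ± 0.17, adjusted p = 0.0121, edgeR), a call lost in 5 of 38 alternatives. The log2 fold changes of 9 of the 10 were positive in triple-knockout over haploinsufficient hearts (median 0.36) and of 9 in triple-knockout over wild-type hearts (median 0.37), comparisons that share the triple-knockout libraries. Foxf1 and Cldn6, of the lung, foregut, liver and thymus list, rose in haploinsufficient over wild-type hearts, where 0.924% of all features were called higher. Foxf1 had 18.9 ± 24.5 CPM, against 1.47 ± 2.62 CPM, and Cldn6 had 14.2 ± 16.9 CPM, against 1.19 ± 2.85 CPM in wild-type hearts, so the SD within each group was larger than its mean. Their calls were lost in 15 and 18 of 35 alternatives. The part of these tissues in the histone results was not tested beyond the fits given above.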

How the data were processed

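RNA was measured in 23 libraries, grouped by the genotype labels: 7 triple-knockout, 8 haploinsufficient and 8 wild-type hearts. Per the labels' protocols, total RNA was depleted of ribosomal RNA and sequenced from a single end, 50 nt, without strand. The deposited table of the authors holds whole-number counts for 23512 features, for which HTSeq counted reads that TopHat2 (version 2.0.10), running Bowtie2, had placed on mm10, per the submitters' processing notes. Cufflinks (version 2.1) gave the FPKM values that the authors deposited, per those notes. Exon lengths and mm10 coordinates are those of the authors' deposited annotation. How reads that match several genes were counted is not given in the sources used here.

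The main test was the quasi-likelihood test of edgeR (version 4.0.16, under R version 4.3.3). A single fit took in the 23 libraries, with terms for group and library ID set (IDs 1 to 12 or 19 to 30). Libraries were scaled by TMM, and the expression filter (count 10, total 15) kept 13965 features, of which 24 are parts of the targeted genes or Cre. Two-sided p-values received Benjamini-Hochberg adjustment over all of these, and the threshold was 0.05. CPM uses TMM-scaled sizes, and log2 CPM a prior count of 1. No pair of replicates agreed within sampling noise (lowest chi-square per degree of freedom 5.20).

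The members and lists were chosen with earlier results of these data known. The text names Hist1h2af, the 3 highest members per class in wild-type CPM per kilobase, every called member, the 2 smallest p in each direction, and the called genes or 2 smallest p of each list, of which some are given only as counts. Sequences come from RefSeq (GRCm38.p6) and GENCODE M21. Alternatives were median-ratio scaling, DESeq2 (version 1.42.0), limma (version 3.58.1) on log2 FPKM with 0.1 or 1 added, no filter, other terms, other sample sets and each library left out.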

Additional observations from a re-analysis of the deposited data

Results flagged for a closer look

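In 5 of 111 groups of values, from 37 values in the 3 genotype groups, 1 library stood farther from its nearest neighbour than Dixon's 95% limit allows; chance gives about 1 in 20. Hist1h2ae had 16.2 CPM in triple-knockout replicate 3, where the nearest library had 22.3 CPM, and 52.0 CPM in wild-type replicate 1, where the nearest had 37.9 CPM. Hist1h2ak had 110.6 CPM in haploinsufficient replicate 7, with the nearest at 58.4 CPM. Hist3h2a had 104.5 CPM in haploinsufficient replicate 3, with the nearest at 161.1 CPM. Hist4h4 had 254.6 CPM in triple-knockout replicate 1, with the nearest at 181.8 CPM.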

How the results depend on the processing

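Counts of members called are given for triple knockout against haploinsufficient, triple knockout against wild type, haploinsufficient against wild type and IDs 19 to 30 against 1 to 12, which were 17, 1, 5 and 0. They were 17, 1, 5 and 0 with median-ratio size factors, 40, 1, 8 and 0 with DESeq2, 26, 1, 6 and 0 without a filter, and 16, 1 and 4 without the ID set term. Over all features DESeq2 called 289, 291, 540 and 80 of 21714, and the fit without a filter called 88, 177, 370 and 75. The main fit called 55, 170, 322 and 26 of 13965, so calling moved outside the members too. With only the groups compared the first 3 were 1, 6 and 4, with IDs 1 to 12 alone 8, 0 and 0, and with IDs 19 to 30 alone 1, 1 and 8. Features called in all were 1, 301 and 249 with only the groups compared. They were 168, 55 and 22 with IDs 1 to 12 alone, and 1, 55 and 187 with IDs 19 to 30 alone. Exon length correction gave 0, 0, 2 and 0, and limma on log2 FPKM gave 0, 0, 1 and 0 with either pseudocount. Over all features exon length correction called 0, 182, 315 and 37. Limma called 0, 109, 252 and 0 with 0.1 added and 0, 128, 285 and 1 with 1 added. Between the GRK groups, 30 of 55 members had an unadjusted p under 0.05 with exon length correction and 63 of 67 with limma. Without the libraries of high lung, foregut, liver and thymus score the counts were 0, 1, 0 and 1. That fit called 0, 76, 124 and 114 features in all. Alternatives chosen after seeing the data gave 4, 3, 2 and 0 with the short-gene level as a term, 27, 14, 1 and 3 with the lung, foregut, liver and thymus score as a term, and 28, 1, 6 and 1 without haploinsufficient replicates 3 and 7. With the lung, foregut, liver and thymus score as a term, 169, 198, 210 and 140 features were called in all. With the short-gene level as a term these were 4, 213, 228 and 79, and without haploinsufficient replicates 3 and 7 they were 186, 194, 330 and 5. Leaving out 1 library gave 4 to 43, 1 to 1, 2 to 23 and 0 to 0. In the first comparison, features called in all then ran from 10 to 414. The causes were not tested. The replicate block gave 0, 1, 3 and 0 members, and 0, 137, 203 and 0 features in all. Same-numbered libraries correlated at -0.195 to 0.484, -0.263 to 0.0438 and -0.225 to -0.0247 in the 3 comparisons of genotypes, so the numbers were not taken as pairs. Over these alternatives Hist1h2af kept its call in 30 of 38 for triple knockout against haploinsufficient (adjusted p 2.44e-06 to 0.758) and in 33 of 38 against wild type (0.000141 to 0.267), and Hist3h2a in 36 of 38 for haploinsufficient against wild type (edgeR, DESeq2 or limma).

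Signs reversed in few values, of genes that were not called. For haploinsufficient against wild type, Hba-x was -0.051 with the replicate block, -0.49 within IDs 19 to 30, -0.082 with limma on log2(FPKM + 0.1) and -0.081 on log2(FPKM + 1), and it ran from -0.070 to 0.32 with 1 library left out. Slc4a1 was -0.19 within IDs 19 to 30. Hist2h2be was 0.077 without the libraries of high lung, foregut, liver and thymus score and -0.13 to 0.013 with 1 library left out. For triple knockout against haploinsufficient, Alas2 was 0.19 within IDs 19 to 30 and Ttn was -0.073 with exon length correction. Depth limits low members most: the shallowest library, a haploinsufficient one, had 1757257 counts, and the 0 counts of members without sequence of their own do not show that the genes were silent.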
